A study of Saccharomyces cerevisiae with 8 samples.

Results

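The regions described here are the convergent intergenic gaps of budding yeast, where a gene on the plus strand and its right-hand neighbour on the minus strand end towards each other, so that the gap between them holds 2 terminators and no promoter of either gene. They were chosen by annotation alone, as stretches of at least 50 bp between adjacent nuclear protein-coding open reading frames (ORFs, taken from the first to the last coding base) of the R64 reference, the build also called sacCer3. Among 6002 ORFs on 16 chromosomes, 1477 of 5794 such gaps were convergent. Another 2803 were tandem, between ORFs on the same strand, and 1514 were divergent, between ORFs that start from the gap. RNA polymerase II (RNAPII) was immunoprecipitated from crosslinked chromatin of W303a yeast grown at 30 °C to mid-log phase in synthetic complete medium, with an antibody to its largest subunit, and sequenced (ChIP-seq). In one strain, Tfg1-K60,61R-HA, lysines 60 and 61 of the HA-tagged Tfg1 subunit of the general transcription factor TFIIF were changed to arginine, which impairs attachment of the small protein SUMO. The study states that a second, unplanned amino acid change is present in its Tfg1, so the effect of the lysines cannot be told apart from it. The other strain, Tfg1-HA, carries the same tag on the normal sequence. Each strain gave 2 RNAPII immunoprecipitation (IP) libraries and 2 input libraries, and the values below come from 4 lists of peaks, 1 for each IP library. The question addressed is how peaks lie over and beyond the 3′ ends of convergent genes, and whether that differs between the strains.

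As background, RNAPII does not stop at the stop codon. It transcribes through the 3′ untranslated region, the transcript is cut and polyadenylated at signals within it, and the polymerase travels on until it is released from DNA, for many mRNA genes with the help of the exonuclease Rat1. In a compact genome a polymerase that leaves the end of one convergent gene soon meets the end of the other. In yeast, AT-rich elements guide the cut, among them the efficiency element, for which TATATA is the best-known form and which the RNA-binding protein Hrp1 recognises.

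The sequences below, read from the reference, show the first TATATA past the stop codon of 6 genes whose gaps are described later. Each line gives 30 bases on the strand of the named gene, 5′ to 3′, with TATATA in capitals. The element began 103 bases past the ORF of PGK1 in a gap of 188 bp, 13 bases past TPI1 in a gap of 573 bp, 216 bases past ACT1 in 287 bp, 33 bases past CCT4 in 136 bp, 58 bases past CDC19 in 137 bp and 75 bases past YAL037C-A in that same gap. The letters TATATA are their own reverse complement, so the CDC19 and YAL037C-A lines are the 2 strands of 1 stretch, and a single copy there stands past the ends of both genes.
PGK1, chrIII:139087-139116, plus strand: atattttttattTATATAcgtatatataga
TPI1, chrIV:555696-555725, minus strand: gattaatataatTATATAaaaatattatct
ACT1, chrVI:53027-53056, minus strand: caaaaaaaggaaTATATAtacgaaaaacta
CCT4, chrIV:201603-201632, plus strand: tatgtttatgcaTATATAcatatatatgtt
CDC19, chrI:73334-73363, plus strand: ttttttaaatttTATATAaagacatggttt
YAL037C-A, chrI:73334-73363, minus strand: aaaccatgtcttTATATAaaatttaaaaaa

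Convergent gaps were short. Their median length was 235 bp, with quartiles of 146 and 358 bp and a range of 50 to 8042 bp, against medians of 404 bp in tandem and 522 bp in divergent gaps. Together they spanned 520 kb, or 4.31% of the nuclear genome, and 87 of them held another annotated gene or mobile element. A further 36 convergent pairs lay 1 to 49 bp apart and fell outside the limit. At least 50% of the bases were under peaks in 10, 6, 11 and 9 of these 36, in Tfg1-K60,61R-HA replicates 1 and 2 and Tfg1-HA replicates 1 and 2. Among the 23 gaps just inside it, of 50 to 59 bp, the counts were 3, 2, 2 and 2. Lists are given in this order throughout.

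The lists held 1098, 894, 1257 and 1171 peaks, and their narrowest peaks spanned 211 to 224 bp, about the length of a typical convergent gap. The read depth of the libraries is unknown, as the lists hold peaks and no read counts. The names of 2 lists, and of the peaks in them, go against their labels. Tfg1-K60,61R-HA replicate 1 names its peaks in upper case, the yeast convention for a normal gene, and Tfg1-HA replicate 2 names them in lower case, the convention for a mutant allele. The labels were kept, values are given for each list, and comparisons of strains are also given without these 2 lists, that is for Tfg1-K60,61R-HA replicate 2 against Tfg1-HA replicate 1. Measures below differ in how they pair the lists. The ratio of convergent to divergent coverage and the upstream extent of peaks were alike in lists of the same label and apart between labels, whereas coverage of convergent gaps was higher in both lists with upper-case names. The study describes the replicates as independent and made from cultures, and the sample titles give only their numbers.

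Peaks lay over convergent gaps more than over other intergenic sequence. Of all bases in convergent gaps, 33.3% and 25.3% were under peaks in Tfg1-K60,61R-HA and 34.7% and 30.2% in Tfg1-HA. In tandem gaps the shares were 19.1% and 14.6%, against 23.2% and 19.9%, and in divergent gaps 10.4% and 7.21%, against 16.1% and 12.9%. In all 4 lists the convergent share was above the tandem share and the tandem share above the divergent one. Convergent gaps took 9.11%, 9.85%, 8.31% and 8.40% of the length under peaks, and 560 (51.0%), 423 (47.3%), 588 (46.8%) and 513 (43.8%) peaks touched at least 1 of them.

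With the lists grouped by their labels, the strains could not be told apart by coverage of convergent gaps. The share of bases averaged 29.3 ± 5.67% in Tfg1-K60,61R-HA lists and 32.5 ± 3.16% in Tfg1-HA lists (SD, n = 2 each), a difference of -3.19 percentage points, smaller than the spread within Tfg1-K60,61R-HA (two-sided exact permutation p = 0.667, where the smallest p that 2 lists against 2 allow is 0.333). At least 50% of the bases were covered in 529 and 390 gaps of Tfg1-K60,61R-HA and in 557 and 482 gaps of Tfg1-HA, a difference of -60 gaps (exact permutation p = 0.667). Gaps covered over their whole length numbered 396 and 282 in Tfg1-K60,61R-HA and 413 and 350 in Tfg1-HA, a difference of -131 without the 2 lists whose names go against their labels. The direction rested on Tfg1-K60,61R-HA replicate 2, the shortest list. Without it the differences were 0.827 points and 9.5 gaps, whereas without the 2 lists whose names go against their labels they were -9.43 points and -167 gaps, 1 list against 1 and with no test.

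Over divergent gaps the strains did not overlap, with 8.78 ± 2.22% in Tfg1-K60,61R-HA and 14.5 ± 2.24% in Tfg1-HA (SD, n = 2 each; difference -5.73 points, exact permutation p = 0.333, the smallest possible). Tandem gaps differed by -4.70 points, also without overlap (exact permutation p = 0.333). The ratio of Tfg1-K60,61R-HA to Tfg1-HA mean coverage was 0.902 in convergent, 0.782 in tandem and 0.605 in divergent gaps. Within each list, coverage of convergent gaps was 3.22 and 3.50 times that of divergent gaps in Tfg1-K60,61R-HA, against 2.15 and 2.34 times in Tfg1-HA. This ratio, which compares gap classes within a list, differed by 1.11 with no overlap between strains (exact permutation p = 0.333). The difference was 0.559 when only peaks with a deposited fold of at least 2 were used, and 1.35 without the 2 lists whose names go against their labels. The comparison of strains over tandem and divergent gaps was added after the data had been seen.

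**Figure D1:**
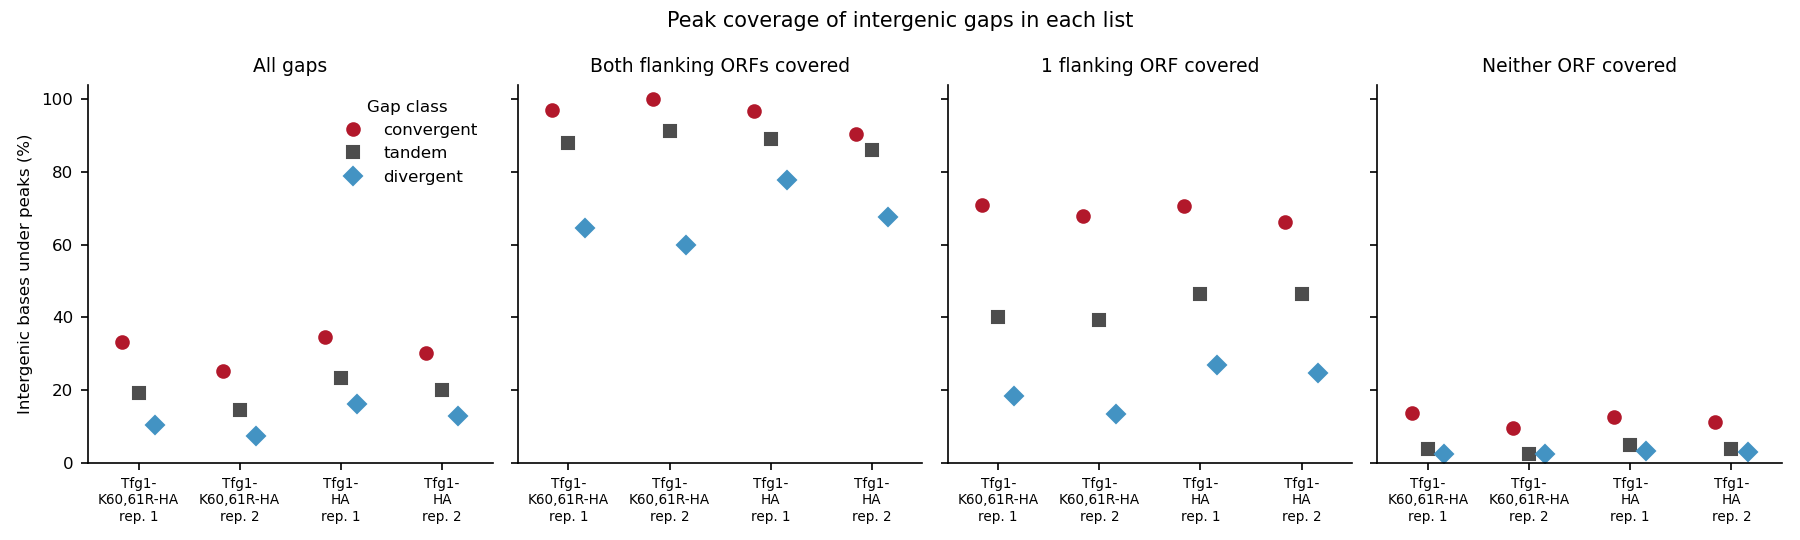
Percent of intergenic bases under RNAPII peaks (y axis) in each of the 4 lists (x axis), for convergent, tandem and divergent gaps, over all gaps and by the number of flanking ORFs that were at least 50% covered in that list. Each point is 1 list, and the convergent value is above both other classes in every list and every panel, most of all where 1 ORF was covered.

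Coverage of a gap followed that of its ORFs, and convergent gaps stayed ahead of the other classes when the ORFs were matched. An ORF counted as covered if peaks lay on 50% or more of its bases in the list at hand. Between 2 covered ORFs, 96.9%, 100%, 96.7% and 90.3% of convergent bases were under peaks, over 86, 52, 91 and 86 gaps. With 1 covered ORF the shares were 71.0%, 67.7%, 70.6% and 66.1%, over 303, 256, 371 and 314 gaps. With neither ORF covered they were 13.7%, 9.65%, 12.6% and 11.3%, over 1088, 1169, 1015 and 1077 gaps. Where 1 ORF was covered, tandem gaps reached 40.2%, 39.3%, 46.4% and 46.3%, and divergent gaps 18.3%, 13.4%, 26.8% and 24.8%. Convergent gaps therefore exceeded tandem gaps by 25.8 ± 4.80 points and divergent gaps by 48.1 ± 6.43 points (mean ± SD over 4 lists; two-sided exact sign-flip permutation p = 0.125 in each case, the smallest that 4 lists allow). The covered ORF faces the gap with its 3′ end in every convergent gap, with its 5′ end in every divergent gap, and with either in tandem gaps.

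With both ORFs covered, the convergent excess was 7.36 ± 2.10 points over tandem and 28.6 ± 9.65 points over divergent gaps, and with neither covered it was 8.12 ± 1.21 and 9.13 ± 1.76 points (exact sign-flip permutation p = 0.125 for each). All 4 lists showed the same direction in these comparisons. When tandem and divergent gaps were reweighted to the gap lengths of convergent gaps, the excess between 2 covered ORFs was 2.19 and 7.99 points, with 1 covered ORF 31.2 and 61.8 points, and with neither 10.1 and 12.4 points. Without peaks under a fold of 2, the excess where neither ORF was covered was 0.697 and 0.406 points, no longer in the same direction in every list (exact sign-flip permutation p = 0.375 for each), and that over divergent gaps between 2 covered ORFs was 4.59 points (exact sign-flip permutation p = 0.5).

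Set over all 4 lists, 340 convergent gaps (23.0%) were at least 50% covered in every list, 835 in none and 302 in 1 to 3 lists. Coverage was all or nothing at most of them, as 237 gaps were fully covered in all 4 lists and 777 had no base under a peak in any. Of the 449 convergent gaps covered in both Tfg1-HA lists, 75.7% (95% Wilson interval 71.6% to 79.5%, which covers counting error only) were also covered in the Tfg1-K60,61R-HA pair, against 67.5% (63.2% to 71.4%) of 501 tandem and 50.4% (41.6% to 59.2%) of 119 divergent gaps. Gaps picked by coverage in both Tfg1-K60,61R-HA lists gave the opposite order of classes. Of these, 92.1% of 369 convergent, 94.4% of 358 tandem and 96.8% of 62 divergent gaps were covered in all 4 lists. The shares thus depend on which lists picked the gaps, and they rank no class as better retained. They compare classes in the same 4 lists and were not tested. Both ORFs were covered in all 4 lists at 40 gaps, and each of the 40 was bridged in every list by 1 unbroken peak. Exactly 1 ORF was covered in all lists and the other in none at 170 gaps, of which 148 (87.1%) were covered throughout. Neither ORF was covered in any list at 950 gaps, of which 30 (3.16%) were covered in all 4 lists and 763 had no covered base.

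Gaps beside ribosomal protein genes, which are among the most transcribed genes of growing yeast, were covered nearly throughout. Of 70 convergent gaps that flank a cytosolic ribosomal protein gene, 68 were at least 50% covered in every list and 2 in none. The 2 were the long gaps YHR020W-RPS27B (1808 bp) and MID2-RPS25B (3766 bp). The glycolytic and fermentation genes had 11 such gaps, 10 covered in all lists, and histone genes had 6, all covered in all lists. Chaperone genes had 8, of which 7 were covered throughout, and the other, HSP26-YBR072C-A, was fully covered in 3 lists and had no covered base in Tfg1-HA replicate 2. HSP26 encodes a small heat shock protein. Cell wall genes had 9 with 8 covered throughout, and translation factor genes 2 with both covered. Genes for 3′-end processing and termination factors themselves, such as PCF11 and RNA15 of cleavage factor I, RTT103 and the helicase gene SEN1, flanked 12 gaps, of which 1 (SSU72-POP1) was covered in all lists and 9 in none. Across all 1477 convergent gaps the share covered in all lists was 23.0%. These lists were chosen with earlier results in view and their shares were not tested.

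Among the gaps of the glycolytic genes, PGK1-POL4 (chromosome III, 138997 to 139184) was fully covered in all 4 lists, between PGK1, which encodes phosphoglycerate kinase and was covered over its whole length, and the DNA polymerase gene POL4, covered over 20.8% or less. The gap CDC19-YAL037C-A (chromosome I, 73289 to 73425), past the pyruvate kinase gene CDC19, was fully covered in all lists, as were ENO1-COQ6 beside an enolase gene, BLI1-FBA1 beside the aldolase gene and YFL040W-ACT1 beside the actin gene. HIP1-TDH3 and MHO1-TDH2 were also fully covered, but the TDH genes, which encode glyceraldehyde-3-phosphate dehydrogenase, are close copies, and how reads matching several of them were counted is not given in the sources used here. The same uncertainty applies to any other gene with a close copy, also among the ribosomal protein and histone genes counted above. The gap VMS1-TPI1 (573 bp) beside the triosephosphate isomerase gene TPI1 was covered over 87.1%, 69.8%, 77.0% and 72.8% of its length, and YKL154W-GPM1 (1306 bp), beside the phosphoglycerate mutase gene GPM1, over 41.5%, 37.8%, 40.1% and 38.9%. In these 2 long gaps the covered stretch adjoined the glycolytic gene, and VMS1 and YKL154W had no covered base.

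At 2 gaps beside lysine biosynthesis genes the lists disagreed, but the peaks lay largely outside these genes. The gap MGA2-LYS1 (149 bp) was fully covered in Tfg1-K60,61R-HA replicate 1 and both Tfg1-HA lists and had no covered base in Tfg1-K60,61R-HA replicate 2. The gap RAD16-LYS2 (127 bp) was fully covered in Tfg1-K60,61R-HA replicate 1 and had no covered base in the other 3 lists. Neither gap separated the strains. The gap TFG1-HGH1 (250 bp), past TFG1 in the reference, had no covered base in any list. In both strains the study lists the tag on TFG1 together with a TRP1 marker gene. The reference gap may therefore differ from the sequence that follows TFG1 in these strains, and its value says little about the end of TFG1.

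Bridging was not limited to short gaps. The longest fully covered gaps between 2 covered ORFs were CGR1-SCW11 (855 bp, holding a tRNA gene), VEL1-MNT2 (750 bp), RPL36A-CMC4 (683 bp, holding a snoRNA gene), STP2-ERG11 (651 bp) and ECM33-RPG1 (640 bp). ECM33 encodes a cell wall protein, RPG1 the largest subunit of translation initiation factor eIF3, ERG11 the sterol demethylase of ergosterol synthesis and SCW11 a cell wall glucanase. All 40 gaps between ORFs covered in every list were fully covered, so no lowest-covered example exists among them, and the first 5 by position included the histone gene gaps HTB2-ECM15 (265 bp) and HHT1-IPP1 (370 bp).

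How far a peak runs past a stop codon is hard to read where the other gene may have given part of it. A 3′ end was therefore called isolated in a list when its ORF was covered and the 50% of the neighbour ORF farther from the gap had no base under a peak. The nearer 50% could still be covered, so a part from the neighbour was not excluded. At the isolated end of RPI1, for example, the neighbour QDR1 was covered over 41.8%, 26.9%, 39.8% and 40.2%. The run is the distance from the last coding base to the downstream edge of the peak over the ORF that reaches farthest, and it is negative when that edge lies inside the ORF. Convergent gaps gave 295, 247, 353 and 296 isolated ends, and the median run was 382 and 358 bp in Tfg1-K60,61R-HA and 351 and 348.5 bp in Tfg1-HA. The middle 50% of runs spanned 282.5 to 500 bp and 269.5 to 474 bp in Tfg1-K60,61R-HA, against 252 to 457 bp and 242 to 437.25 bp in Tfg1-HA. Few peaks ended before the stop codon, at 2.37%, 5.26%, 3.97% and 7.43% of ends. Runs from plus-strand and minus-strand genes were alike, with medians of 388, 357.5, 352 and 350 bp on the plus strand and 378.5, 360, 348 and 341 bp on the minus strand.

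Median runs past tandem ends were lower in each list, at 337, 328.5, 333.5 and 343 bp, over 287, 252, 326 and 296 isolated ends. The convergent median was higher by 24.4 ± 16.9 bp (mean ± SD over 4 lists; higher in 4 of 4 lists, exact sign-flip permutation p = 0.125, the smallest possible), and by 36.9 bp once peaks under a fold of 2 were left out. Within both length classes compared, the difference was larger than over gaps of all lengths. In gaps of 200 to below 400 bp the median run was 374, 349, 355 and 362 bp at convergent ends, against 301, 302, 289 and 313.5 bp at tandem ends, a difference of 58.6 ± 12.9 bp. In gaps of at least 400 bp it was 490.5, 461, 444 and 434 bp, against 369.5, 353, 357 and 357 bp, a difference of 98.3 ± 19.9 bp. Both differences had the same direction in 4 of 4 lists (mean ± SD over lists; exact sign-flip permutation p = 0.125 for each), and this split by length was added after the data had been seen. In the binned profile, coverage of convergent gaps was 97.2%, 94.2%, 95.3% and 92.0% in the first 50 bp past the stop codon, 86.8%, 83.8%, 85.3% and 77.9% at 250 to 300 bp, and 59.7%, 52.6%, 52.7% and 48.1% at 450 to 500 bp. In tandem gaps it was 31.9%, 31.3%, 32.3% and 34.7% in that last bin. Bins past the stop codon include only gaps that are long enough, so those far from it rest on fewer ends, 72, 50, 69 and 62 in the last convergent bin.

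**Figure D2:**
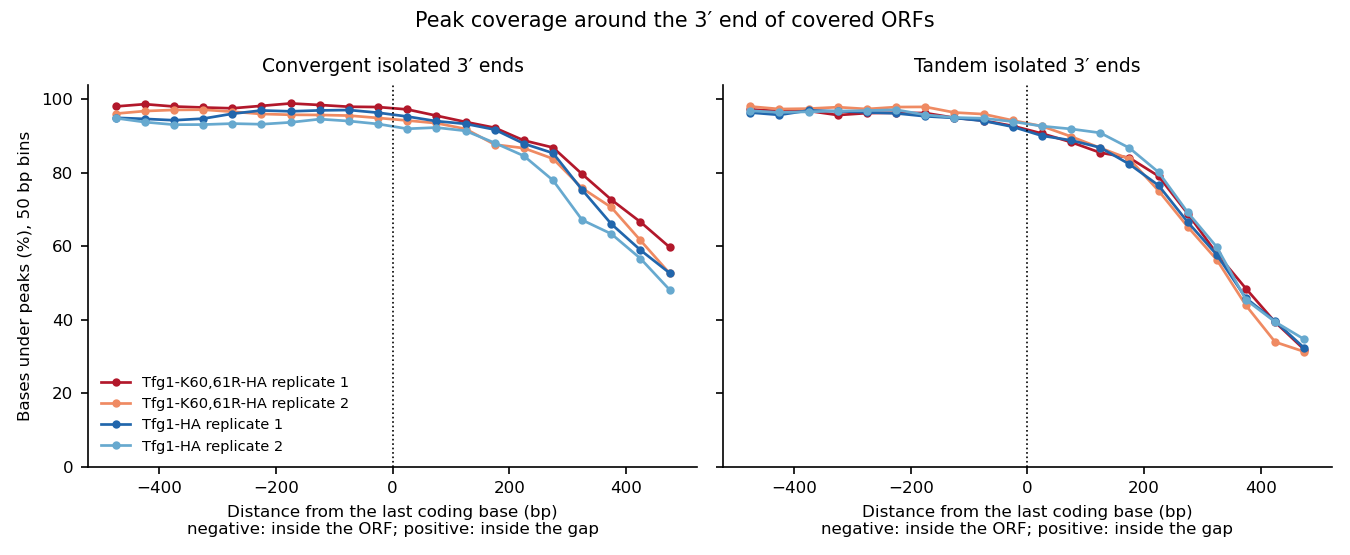
Percent of bases under peaks (y axis) in 50 bp bins around the last coding base of isolated 3′ ends (x axis, bp; negative inside the ORF, positive inside the gap), for convergent (left) and tandem (right) ends, with 1 line for each list. Coverage is high up to the stop codon in both classes and declines inside the gap, to between 48.1% and 59.7% at 450 to 500 bp in convergent gaps and between 31.3% and 34.7% in tandem gaps.

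The start side of the same genes was covered less far. For convergent isolated ends whose upstream region could be read in the same way, 172, 158, 189 and 169 ORFs, the median run was 382 and 362 bp downstream and 57.5 and 51.5 bp upstream in Tfg1-K60,61R-HA, against 348 and 350 bp downstream and 121 and 108 bp upstream in Tfg1-HA. The downstream run exceeded the upstream one by 276 ± 48.6 bp between medians (mean ± SD over 4 lists, exact sign-flip permutation p = 0.125), and at 82.6%, 83.5%, 77.2% and 78.1% of single ORFs. The upstream medians of the strains did not overlap, and the downstream medians of Tfg1-K60,61R-HA lay above those of Tfg1-HA. The same order held without the 2 lists whose names go against their labels, with 51.5 against 121 bp upstream and 362 against 348 bp downstream. This comparison of strains was not tested, since the ORFs differ from list to list.

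A run of this length crosses most convergent gaps. At 65.8% and 62.3% of isolated convergent ends in Tfg1-K60,61R-HA, and 64.0% and 62.5% in Tfg1-HA, the peak crossed the whole gap and entered the end of the facing gene, by a median of 140 and 131 bp in Tfg1-K60,61R-HA and 125 and 124 bp in Tfg1-HA. At tandem ends the peak entered the next ORF in 22.6%, 20.2%, 25.2% and 29.7% of cases. The difference was 39.2 ± 4.66 points (mean ± SD over 4 lists, exact sign-flip permutation p = 0.125, the smallest possible), and 24.9 points when tandem ends were reweighted to the gap lengths of convergent ends, an alternative chosen after seeing the data. Within gaps of 200 to below 400 bp, 75.6%, 71.8%, 74.8% and 75% of convergent peaks crossed, against 47.3%, 45.7%, 43.8% and 53.9% of tandem peaks. In gaps of at least 400 bp the shares were 27.2%, 28.2%, 23.5% and 20.5%, against 9.04%, 5.52%, 13.2% and 15.1%. The direction was the same in every list and in both length classes.

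**Figure D3:**
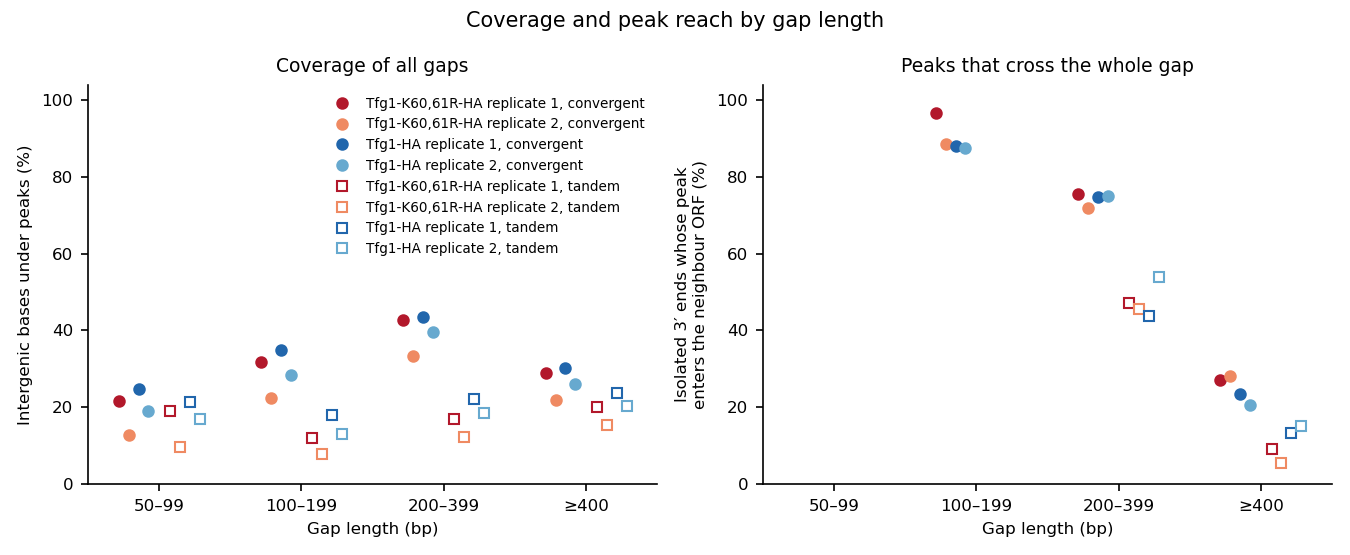
Left, percent of bases under peaks (y axis) by gap length in bp (x axis) for all convergent (filled circles) and tandem (open squares) gaps; right, percent of isolated 3′ ends whose peak crossed the gap into the neighbour ORF, shown for length classes with at least 20 ends. Each point is 1 list; crossing declines with gap length in both classes and the convergent points lie above the tandem ones from 200 bp on.

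Coverage was highest in gaps of intermediate length. In gaps of 200 to below 400 bp (555 gaps) 42.6%, 33.4%, 43.6% and 39.6% of bases were under peaks. The shortest gaps, of 50 to 99 bp (144 gaps), had 21.6%, 12.8%, 24.7% and 19.1%, and the 314 gaps of at least 400 bp had 29%, 22.0%, 30.1% and 25.9%. Short gaps were thus not covered more often than long ones, though the narrowest peak was longer than 200 bp. A peak could still end inside a short gap. PBR1-RHO5 (95 bp), for example, was covered over 25.3% and not bridged in Tfg1-HA replicate 2.

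The strains were compared over the 161 convergent ends that were isolated in all 4 lists. Their median run was 408 and 368 bp in Tfg1-K60,61R-HA and 395 and 390 bp in Tfg1-HA, or 388 ± 28.3 bp and 392.5 ± 3.54 bp (SD, n = 2 each). The difference of -4.5 bp was smaller than the spread between replicates (exact permutation p = 1), and at the median end the 4 runs spanned 64 bp. Its sign was not stable, as it was -26.5 bp when Tfg1-K60,61R-HA replicate 1 was left out, 18 bp when replicate 2 was, and -30 bp without the 2 lists whose names go against their labels. At 26 of the 161 ends (16.1%) both Tfg1-K60,61R-HA runs were shorter than both Tfg1-HA runs, against 24.5% of the 323 convergent and tandem ends together, and at 18 (11.2%) both were longer, against 10.8%. Over 162 tandem ends the medians were 371 and 341 bp in Tfg1-K60,61R-HA and 381 and 366.5 bp in Tfg1-HA, a difference of -17.8 bp (exact permutation p = 0.667). Without the 2 lists whose names go against their labels, the tandem difference was -28 bp over 193 ends. In that pair of lists the Tfg1-K60,61R-HA run was the shorter at 146 (73.4%) and the longer at 52 (26.1%) of the convergent ends isolated in both, against 75.5% and 23.7% of 392 convergent and tandem ends together.

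Single ends showed how repeatable a run could be. The peak over PGK1 ended 548 and 489 bp past its stop codon in Tfg1-K60,61R-HA and 551 and 486 bp in Tfg1-HA, 298 to 363 bp inside POL4. That over TPI1 ended after 499 and 400 bp in Tfg1-K60,61R-HA and 441 and 417 bp in Tfg1-HA, inside the gap. The peak over ACT1 ran 445 and 355 bp in Tfg1-K60,61R-HA and 420 and 416 bp in Tfg1-HA. GPM1 gave 542 and 494 bp, against 524 and 508 bp, in its gap of 1306 bp, which also holds a tRNA gene and a long terminal repeat. ENO1 gave 580 and 518 bp, against 523 and 474 bp, and RPS20, a gene of the small ribosomal subunit, 572 and 492 bp, against 535 and 541 bp. YHB1, which encodes flavohemoglobin, gave 512 and 542 bp, against 531 and 529 bp. At each of these 7 genes the ranges of the 2 strains overlapped.

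The longest run belonged to RPS26B, whose peak reached 2059 and 2036 bp past the stop codon in Tfg1-K60,61R-HA and 2106 and 2035 bp in Tfg1-HA, across a gap of 876 bp with a snoRNA gene and on into PMD1. COQ21 followed with 1322 and 1340 bp, against 1352 and 1376 bp, in a gap of 1616 bp that holds an snRNA gene. Both of these gaps hold another gene of their own, as does that past GLC7 below, with a tRNA gene and a long terminal repeat, and how much of each run belongs to such genes was not tested. RPI1 had 1253 and 1000 bp, against 1219 and 1225 bp, GLC7, the gene of a protein phosphatase catalytic subunit, 996 and 950 bp, against 1035 and 948 bp, and the RNA helicase gene DED1 949 and 913 bp, against 961 and 949 bp. Of these 5, COQ21 was the only one whose strains did not overlap. Such ends were not rare. Both Tfg1-K60,61R-HA runs were shorter at 16.1% and longer at 11.2% of the 161 convergent ends isolated in all 4 lists. Over the 323 convergent and tandem ends together the shares were 24.5% and 10.8%.

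The shortest runs, ranked by their mean over the lists, included ends that differed widely between lists. Such a ranking favours ends with a low value in a single list, so it cannot show whether short runs are less repeatable. ADE3, of the folate pathway, had peak edges at 224 and -1265 bp in Tfg1-K60,61R-HA and 254 and 198 bp in Tfg1-HA, and MCH5, a riboflavin transporter gene, at -11 and -313 bp, against -193 and -12 bp. GAT1, the gene of a GATA factor of nitrogen regulation, had edges inside its ORF in both Tfg1-K60,61R-HA lists, at -120 and -30 bp, and past it in both Tfg1-HA lists, at 307 and 320 bp. RHO5 had 256 and 114 bp, against 211 and 24 bp. RPB4, which encodes an RNAPII subunit, had 168 and 156 bp, against 173 and 122 bp, and its peak still crossed the 86 bp to YUR1 in all 4 lists. Of these 5 ends GAT1 was the only one whose strains did not overlap, with both Tfg1-K60,61R-HA runs shorter, as at 16.1% of the 161 convergent ends.

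Some gaps were covered where neither gene was. At the 30 gaps of this kind the more covered ORF had a median of 10.8%, 10.4%, 20.5% and 11.4% of its length under peaks, and at 17, 16, 22 and 18 of them at least 1 of the ORFs was at least 50% covered over its last 200 bp. The first examples by coverage and position were NUP60-ERP1 (188 bp), SUS1-CYC8 (290 bp), SUT1-YIP5 (172 bp), MOB1-SLM1 (136 bp) and STE24-ILM1 (121 bp), all fully covered in all 4 lists. They flank genes as different as a nucleoporin (NUP60), a subunit shared by SAGA and the mRNA export complex TREX-2 (SUS1), the corepressor CYC8, a regulator of mitotic exit (MOB1) and the protease that matures a-factor (STE24). At SUT1-YIP5 no more than 12.2% of either ORF was covered in any list. The peak lay over the gap and the adjoining ends of both ORFs, with deposited folds of 1.29 to 1.44.

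Gaps that hold a snoRNA gene were often covered. Of 14 such convergent gaps, 11 were at least 50% covered in all 4 lists, against 320 of the 1390 gaps with no other annotated gene or element. Gaps with a tRNA gene, which RNA polymerase III transcribes, numbered 45, and 6 of them were covered in all lists. snoRNA genes are transcribed by RNAPII, and reads over them cannot be told from those of the flanking genes in a peak list. Leaving out all 87 gaps with another gene or element changed the direction of no comparison.

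Of the 1477 convergent gaps, 23 were below 50% coverage in each Tfg1-K60,61R-HA list and at or above it in each Tfg1-HA list, or 1.56%, against 2.04% (118) of all 5794 gaps. The opposite pattern was found at 4, or 0.271%, against 0.121% (7) of all gaps. The first share was close to the background and the second rests on 4 gaps, which are among those 7. These counts depended on most of the lists. The first was 50 without Tfg1-HA replicate 1, 65 without replicate 2 of that strain and 106 without Tfg1-K60,61R-HA replicate 1, since fewer lists must then be covered or free. It was 187 without the 2 lists whose names go against their labels, but 26 without Tfg1-K60,61R-HA replicate 2. The second was 16 and 40 without replicates 1 and 2 of Tfg1-K60,61R-HA, 27 without Tfg1-HA replicate 1 and 20 without those 2 lists. Without Tfg1-HA replicate 2 it was 6. When every list was cut to the same number of peaks, the counts were 7 and 12, the other way round. No gap of either kind flanked a gene on the 7 lists used above, although the chaperone list does not include the chaperonin genes, such as CCT4 below.

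At 10 of the 23 gaps coverage was 0% in each Tfg1-K60,61R-HA library and 100% in each Tfg1-HA library. The first 6 by position were POA1-CHS3 (156 bp), CCT4-CRD1 (136 bp), SLY1-RVB1 (211 bp), PCM1-SDD1 (94 bp), NOP16-PMI40 (237 bp) and CMI7-INP51 (80 bp). The Tfg1-HA peaks over these 6 gaps were weak, with deposited folds of 1.23 to 1.45. Most of the 6 gaps were also shorter than the narrowest peak, of 211 bp, which favours values of 0% or 100%. CHS3 encodes a chitin synthase, CCT4 a subunit of the cytosolic chaperonin, CRD1 cardiolipin synthase, SLY1 a vesicle fusion factor, RVB1 an ATPase of chromatin remodelling complexes, NOP16 a ribosome biogenesis factor and PMI40 mannose-6-phosphate isomerase. Coverage of the flanking ORFs themselves was low at most of them. At CCT4-CRD1 it was at most 11.9% in the Tfg1-HA lists, and at SLY1-RVB1 at most 7.18%, whereas PCM1 was covered over 47.1% and 96.9% and CMI7 over 100% and 61.4% of its length. In 4 of the 23 gaps a Tfg1-K60,61R-HA list had between 20% and 50% coverage and so lay near the limit.

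The 4 gaps of the opposite pattern were NUF2-HST1 (70 bp) and AIM39-DDR2 (297 bp), both with 100% in Tfg1-K60,61R-HA and 0% in Tfg1-HA, PLM2-SAM2 (391 bp) with 100% and 88.5%, against 0% and 0%, and OM45-VHS2 (264 bp) with 100% and 78.0%, against 0% and 0%. DDR2 is a gene induced by many stresses and was itself covered over 100% and 55.4% of its length in Tfg1-K60,61R-HA and not at all in Tfg1-HA. SAM2, which encodes a synthetase of S-adenosylmethionine, was covered over 93.6% and 100%, against 0% and 26.5%. NUF2 encodes a kinetochore protein, HST1 a histone deacetylase and OM45 a protein of the mitochondrial outer membrane. The Tfg1-K60,61R-HA peaks over these 4 gaps were weak as well, with deposited folds of 1.26 to 1.72.

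**Figure D4:**
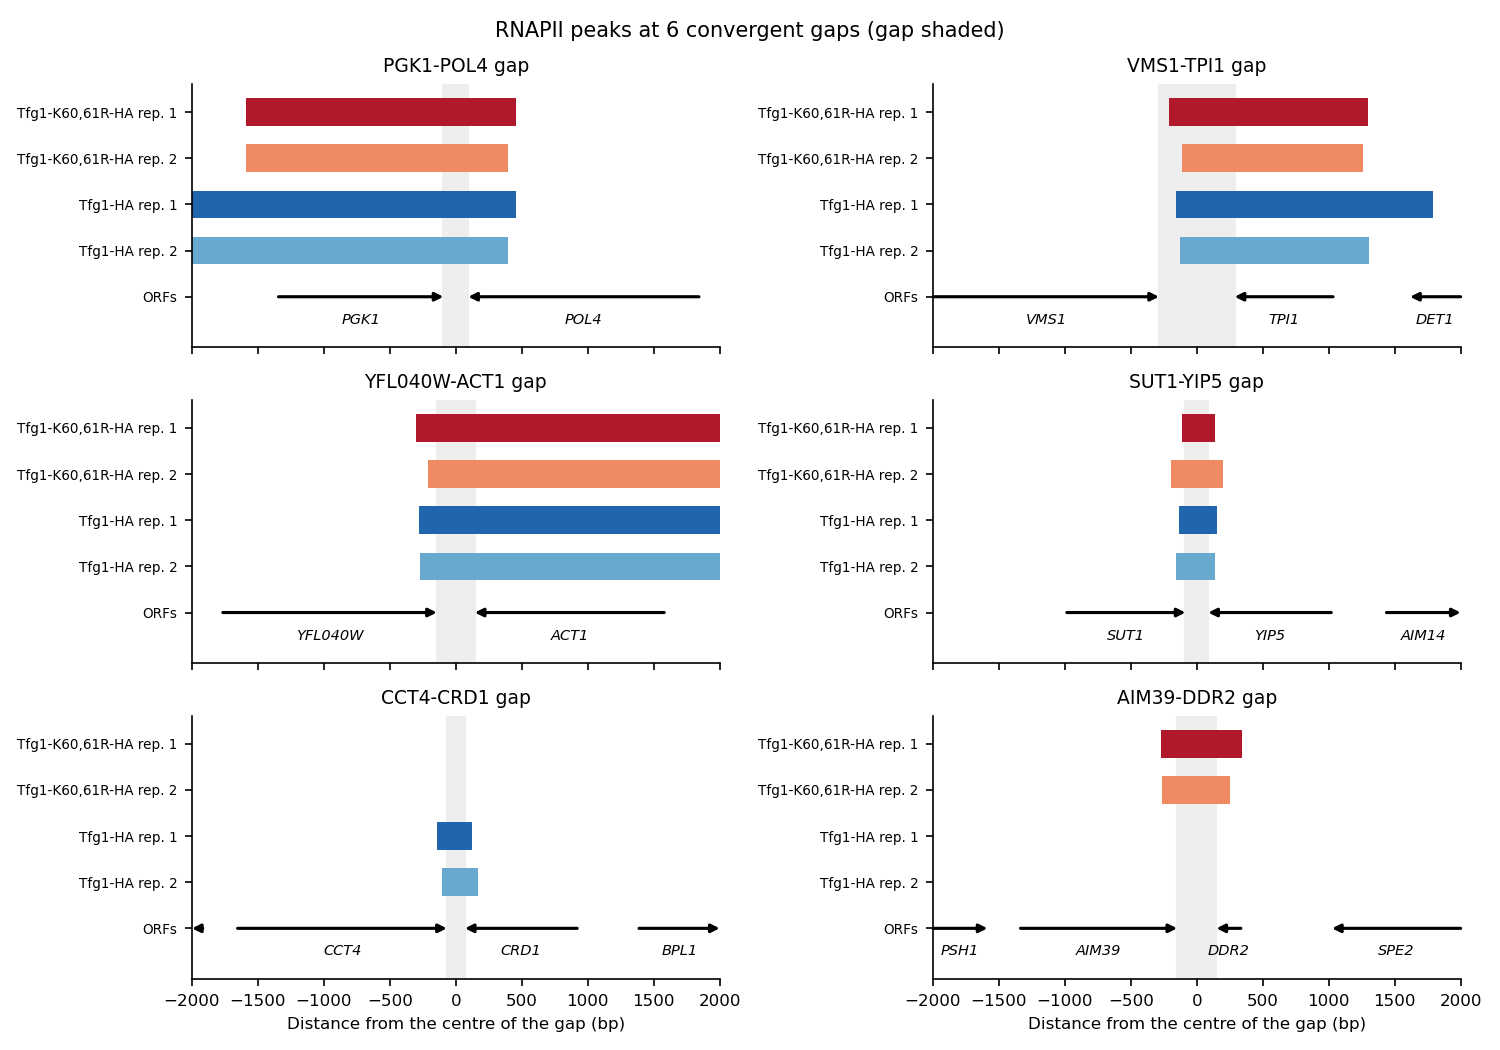
RNAPII peaks (bars) in the 4 lists around 6 convergent gaps (shaded), by distance in bp from the centre of the gap (x axis); black arrows show ORFs in the direction of transcription, and bars and arrows are cut at the edge of the panel. Peaks over PGK1 and ACT1 cross the gap into the facing ORF in all lists, and those over TPI1 end inside it. SUT1-YIP5 has a peak over the gap and the adjoining ends of both ORFs in all lists. CCT4-CRD1 has a peak over the gap only in Tfg1-HA lists and AIM39-DDR2 only in Tfg1-K60,61R-HA lists.

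The sequence past the stop codon was the last property examined. Over the first 100 bases past the ORF, read on the strand of the gene, TATATA was found at 35.9% of 2666 convergent ends in gaps of at least 100 bp, with a Wilson interval of 34.1% to 37.7%, and at 32.0% (30.3% to 33.8%) of 2775 tandem ends. In windows of the same length before the start codons of divergent genes the share was 11.7% of 3002. The letters AATAAA, searched on the strand of the gene only, occurred at 21.0% of convergent ends, 15.9% of tandem ends and 18.0% of the windows before start codons. The base composition moves with these shares, as A or T made up 71.2% of the convergent, 68.2% of the tandem and 65.5% of the start codon windows, and its part in the difference was not tested. The 2 motifs differed in opposite directions between covered and uncovered gaps, a comparison that was not tested. TATATA stood at 32.3% (28.9% to 36.0%) of 656 ends in gaps covered in all 4 lists and at 36.5% (34.1% to 39.0%) of 1464 ends in gaps covered in none, and AATAAA at 24.5% (21.4% to 28.0%) and 19.5% (17.5% to 21.6%). A match here is a string of letters and not a mapped processing site, and the 2 ends of a gap under 200 bp share some of their bases.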

How the data were processed

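RNAPII ChIP-seq libraries of Tfg1-K60,61R-HA and Tfg1-HA strains were used as deposited peak lists, 1 for each of 4 IP libraries. The 4 input libraries entered only as background of the peak calls. According to the study the authors trimmed paired-end reads with TrimGalore and aligned them with Bowtie2 (version 2.3.5.1 in the submitters' processing notes) to sacCer3. They called broad peaks with MACS2 (2.2.7.1) in each IP library against input, at a q-value limit of 0.1, without pooling replicates. The deposited fold is a ratio of IP to background averaged over a peak, and the p-values and q-values deposited beside it are −log10 values. These columns only filtered or ranked peaks here. Depth is not in the files, and the differential binding analysis made by the authors needs reads and was not run.

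Groups came from the sample labels. In Tfg1-K60,61R-HA replicate 1, 894 of 1992 rows repeated the list of replicate 2 under a second series of names and were dropped. Peaks were laid over R64 gaps and ORFs with Python 3.11.15 and numpy 2.4.6, and shares have 95% Wilson intervals. Values per list were compared by two-sided exact permutation (2 against 2) or sign-flip tests (4 lists), which cannot pass 0.05. The code was tested on simulated lists. Gaps named in the text flank genes chosen from the study or rank first in length, run, coverage or difference between strains, with ties taken by position. The regions and gene lists were chosen with earlier results of these data known. Alternatives were the fold, q-value, number of peaks, gap length, coverage limit, other genes in gaps, omitted lists, repeated rows, and averaging, reweighting and pairing choices.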

Additional observations from a re-analysis of the deposited data

How the results depend on the processing

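The comparisons of convergent with tandem or divergent gaps kept the direction of their mean over lists under all 116 alternative values computed for them. Single lists could go the other way. At a fold of at least 2 this held for the excess with neither ORF covered, of 0.697 points over tandem and 0.406 over divergent gaps. It also held for the excess of 4.59 points over divergent gaps between 2 covered ORFs. With 1 list left out the excess ranged from 24.2 to 27.8 points over tandem and 46.0 to 50.3 points over divergent gaps where 1 ORF was covered, and from 17.5 to 30.7 bp for the run. The comparisons of strains over convergent gaps did not keep their direction. With 1 list left out the difference in coverage ranged from -7.20 to 0.827 points, that in covered gaps from -129.5 to 9.5, that in run from -26.5 to 18 bp, the number of gaps covered in Tfg1-HA only from 26 to 106 and that in Tfg1-K60,61R-HA only from 6 to 40. The difference in run was 18.75 bp at a fold of at least 2, 0.5 bp where covered meant 80% of the length, and 20.25 bp over every end isolated in its own list. With an equal number of peaks the difference in covered gaps was 5, that in coverage -0.550 points, and the gaps covered in 1 strain only numbered 7 (Tfg1-HA) and 12 (Tfg1-K60,61R-HA). At a fold of at least 2 these were 35 and 0, and with the repeated rows kept the second was 16. Without the 2 lists whose names go against their labels they were 187 and 20, and the differences in coverage of tandem and divergent gaps were -8.68 and -8.89 points. The cause was not tested. With the replicate block the differences were the same by construction, at -3.19 points, -60 gaps and -4.5 bp, with sign-flip permutation p-values of 0.5, 0.5 and 1, where 2 pairs allow no less than 0.5. Deviations of same-numbered lists correlated at 0.142 over 700 gaps touched by a peak, which does not establish pairing. Of 221 alternative values, 7 changed sign and 13 moved beyond their limit, and 29 others moved by more than 1.5 times. Unknown read depth limits each comparison of strains, since signal below the limit of the caller leaves no mark in a list.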
